A study of Mus musculus with 6 samples.

Results

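The smooth muscle contractile genes examined here were Acta2, Tagln, Cnn1, Myh11, Myl9, Srf, Myocd, Tpm1, Tpm2 and Lmod1, 10 of 21938 protein-coding genes of the mouse genome outside the mitochondrion. They were taken by name from the GENCODE annotation of mm10, together with the open-chromatin regions whose summit lay within the gene or up to 50 kb to either side of it, 195 of 194610 regions in all. Of these, 58 regions were the genes' own, inside the gene or within 1 kb of one of its transcription start sites. Open chromatin was mapped by ATAC-seq, in which a transposase inserts adaptors into accessible DNA, in 6 libraries of cultured adipocytes.

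The study compared beige with white adipocytes. Stromal vascular cells, the fraction of fat that holds the preadipocytes, were taken from the inguinal fat of male wild-type C57BL/6J mice aged 3 to 4 weeks and differentiated for 7 days. The 2 beige libraries came from cultures induced for 48 h with insulin (5 μg/ml per the labels), dexamethasone (5 μM), isobutylmethylxanthine (0.5 mM), T3 (1 nM) and rosiglitazone (1 μM), followed by insulin, T3 and rosiglitazone. The 2 white libraries came from cultures induced with insulin, dexamethasone (1 μM) and isobutylmethylxanthine (0.5 mM) and kept in insulin, without T3 or rosiglitazone. The 2 brown libraries came from stromal vascular cells of brown adipose tissue in the beige-type medium. By the labels these mice too were aged 3 to 4 weeks and the cells were differentiated for 7 days. The brown libraries are not among the files in the study's reporting summary, and whether they were made together with the others is not given. As labelled, brown and beige cultures differed in depot, and white and beige cultures in medium. Brown and white cultures differed in both, which cannot be told apart. All cells were mixed primary cultures and carried no transgene, and the study's reporting summary describes the beige and white replicates as biological. Whether these were separate animals or wells, and what the brown replicates were, is not given in the sources used here, so that p-values measure only the spread between these libraries.

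These genes encode the contractile apparatus of smooth muscle and its regulators. Serum response factor, the product of Srf, binds the CArG box, a short A/T-rich element flanked by CC and GG, and myocardin, the product of Myocd, is its cofactor in smooth muscle. In adipose tissue such genes are known from the smooth muscle and mural cells of vessels and from fibroblastic progenitors, and smooth muscle-like precursors have been described as one source of beige adipocytes.

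The lists held 109143 to 127490 peaks per library and no read counts per peak. The study's reporting summary gives fewer mapped reads for both beige than for both white libraries, and none for the brown. The part of this in the comparisons was not tested. Each peak is given by the percentile of its fold enrichment among all peaks of its own library, from 0 for the weakest to 100 for the strongest. The lists held promoter peaks of all 8 adipocyte markers, among them Adipoq and Pparg, in every library, but they also held those of genes of other cell types. Of 6 mural cell markers, 5 were present in this way throughout, and Rgs5, a pericyte marker, was listed in white replicate 1 only. The median promoter percentile of the mural markers present throughout ran from 55.8 to 61.5 in the beige, 36.0 to 48.1 in the white and 47.1 to 68.7 in the brown libraries. For the 8 adipocyte markers it ran from 54.7 to 59.0 in the beige libraries. It ran from 61.6 to 78.8 in the white and 68.0 to 78.5 in the brown libraries. Adipoq stood at 2.54 and 24.85 in the beige and 15.57 and 46.67 in the white libraries. Its brown values were 62.11 and 58.19, while Pparg kept 71.46 or more in every library. Of 8 skeletal muscle markers 3 were present throughout, namely Ckm, Actn3 and Ttn, while Myf5, Myog and Pax7 were listed in no library. The median of these 3 ran from 73.9 to 89.3 over the libraries, so that a high promoter percentile did not mark adipocyte genes. The same count was 4 of 6 for progenitor, 3 of 5 for endothelial and 3 of 5 for macrophage markers. Their medians ran from 61.8 to 76.1, 71.8 to 85.6 and 9.2 to 45.9 over the libraries. Of all protein-coding genes, 64.2% had a promoter peak in all 6 libraries. Neither these counts nor these medians alone therefore show which cell types were present. A larger share of cells with an open region cannot be told apart from a wider opening in each cell, and the part that mural cells or progenitors had in the results below was not tested.

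The 10 promoters were mostly open in all 3 conditions. A promoter peak, with its summit within 1 kb of a start site, was listed in all 6 libraries for 9 of the 10 genes, against 64.2% of all protein-coding genes. The exception was Cnn1, whose promoter peak was missing from beige replicate 1. With 250 bp in place of 1 kb, 7 of the 10 genes had a promoter peak in all 6 libraries. The share over all genes was not computed at that width. Start sites within 200 bp of each other were joined, which gave 25 start clusters in the 10 genes. Of these, 12 had a peak in all 6 libraries, against 38.1% of the start clusters of all protein-coding genes. The clusters without a peak in any library were all internal or downstream ones: 2 of Cnn1, 1 of Myl9, 3 of Srf, 3 of Myocd and 1 of Tpm1.

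Ranked by the strongest promoter peak of each gene, the members as a median lay below the median promoter in every library. The median percentile of the 9 genes with a promoter peak throughout was 68.2 and 64.3 in the beige, 76.9 and 75.3 in the white, and 73.2 and 76.9 in the brown libraries. The same median over all protein-coding genes with a promoter peak in all 6 libraries lay between 85.9 and 90.7. Among these 9 genes the highest and the lowest mean stood far apart. The promoter of Myh11 averaged the 88.7th percentile over the libraries (SD 6.4, n = 6) and that of Myocd the 43.7th (SD 10.2, n = 6). Neighbours in this order, such as Srf at 76.0 (SD 6.6) and Acta2 at 72.2 (SD 9.5), lay closer together than either SD. These SDs pool the 3 conditions, and the order was not tested within libraries. Srf ranked above Acta2 in every library but white replicate 1, where it stood at 76.9 against 88.29.

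**Figure D1:**
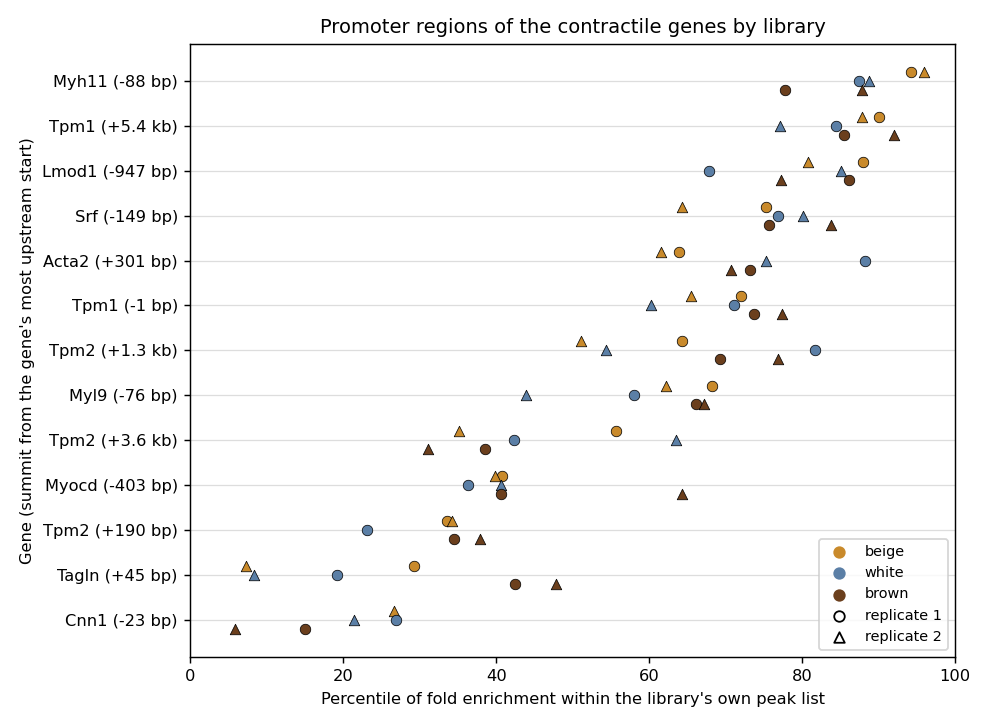
Percentile of fold enrichment of each promoter region within its own library's peak list (x axis), for the promoter regions of the 10 genes listed in at least 5 libraries (y axis, with the distance of the summit from the gene's most upstream start). Each symbol is 1 library, coloured by condition. Myh11 sat highest in every beige library, at 94.3 and 96.01, and Cnn1 lowest in both brown libraries, at 15.0 and 5.85.

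The CArG box was more frequent in the regions of these genes than in all regions. A box, taken as CC, then 6 bases that are each A or T, then GG, which reads alike on both strands, lay within 100 bp of the summit in 9 of the 195 regions (4.62%) and in 7 of the 58 own regions (12.1%), against 0.973% of all regions. Of the 18 promoter regions of the members 5 held one (27.8%), and of 28392 promoter regions of all protein-coding genes 194 did (0.683%). These are descriptions of sequence, given without a test, and a match is no measured binding. Among RefSeq promoters of 300 bases on GRCm38, 7 of the 10 genes had an entry, and Myl9 and Srf held a box there, against 1.63% of 32851 promoters. Over all regions the other motifs searched on both strands were more frequent. The AP-1 motif TGANTCA was found in 12.1% of own and 21.2% of all regions, the TEAD motif GGAATG in 20.7% and 14.1%, and the ETS motif CCGGAAG in 1.72% and 2.35%. No motif searched contains another.

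The 250 bases before the most upstream start of the genes with a box there are shown for Srf, Tagln and Myl9, 5′ to 3′ on the strand of the gene in mm10, with the CArG boxes in capitals. All 3 stretches overlapped a region with a peak in every library, and their boxes lay inside it.
Srf (chr17:46556176-46556425, minus strand): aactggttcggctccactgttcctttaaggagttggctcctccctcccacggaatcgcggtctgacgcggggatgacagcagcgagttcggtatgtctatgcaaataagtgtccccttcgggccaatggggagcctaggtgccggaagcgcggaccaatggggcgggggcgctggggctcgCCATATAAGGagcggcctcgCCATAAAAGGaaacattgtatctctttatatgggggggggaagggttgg
Tagln (chr9:45936059-45936308, minus strand): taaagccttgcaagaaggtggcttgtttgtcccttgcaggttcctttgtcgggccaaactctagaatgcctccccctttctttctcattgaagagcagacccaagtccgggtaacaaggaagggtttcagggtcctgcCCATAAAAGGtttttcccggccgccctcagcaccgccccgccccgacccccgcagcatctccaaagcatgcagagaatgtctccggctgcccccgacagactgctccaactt
Myl9 (chr2:156775170-156775419, plus strand): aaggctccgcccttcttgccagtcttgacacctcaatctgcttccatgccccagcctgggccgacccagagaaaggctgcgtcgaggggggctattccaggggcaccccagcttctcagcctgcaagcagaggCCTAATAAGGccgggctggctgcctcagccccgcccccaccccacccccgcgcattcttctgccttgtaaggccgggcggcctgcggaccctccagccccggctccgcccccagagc
Srf carried 2 boxes, which began 69 and 49 bp before the start, Tagln 1 at 112 bp and Myl9 1 at 117 bp before it.

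Further boxes lay within or near other members' genes and are shown with 10 bases to each side. The second box of Tagln began 11 bp into its first exon, that of Acta2 in its first intron just upstream of its second annotated start, that of Tpm2 upstream of the gene, and those of Lmod1 in the first intron.
Tagln, 11 bp after the start (chr9:45936028-45936057, minus strand): gtgtctttccCCAAATATGGagcctgtgtg
Acta2, 1293 bp after the start (chr19:34254278-34254307, minus strand): gtgtgttttaCCTAATTAGGaaatgctccc
Tpm2, upstream of the start (chr4:43524369-43524398, minus strand): gggaaacatcCCAAAAAAGGgcagaaaaga
Lmod1, 23130 bp after the start (chr1:135347927-135347956, plus strand): cctggtttctCCAAAAATGGggcttgcaac
Lmod1, 34392 bp after the start (chr1:135359189-135359218, plus strand): tgctccttctCCTTTTAAGGcaaggtctga
None of these last 4 boxes lay in a region with a peak in all 6 libraries. Boxes outside the own regions are not shown. Among them, a region 10205 bp upstream of Acta2 held a box and was listed in all 6 libraries, with percentiles from 56.61 to 81.84.

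The promoter of Acta2 held no box in this strict form. When 1 of the 6 inner bases was left free, a search added after the data were seen, 2 such elements lay in the region at its start, shown here in capitals.
Acta2, 133 bp after the start (chr19:34255438-34255467, minus strand): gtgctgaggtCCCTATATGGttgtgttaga
Acta2, 183 bp after the start (chr19:34255388-34255417, minus strand): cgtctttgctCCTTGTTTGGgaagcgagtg
Both fell in the first, noncoding exon of GENCODE, whose start lies 217 bp upstream of the RefSeq start, so that both precede the RefSeq start. Both lay more than 100 bp from the summit and are therefore not in the counts that follow. In this looser form the element was found in 22 of the 195 regions (11.3%) and 9 of the 58 own regions (15.5%), against 6.69% of all regions. Among promoter regions it was found in 5 of 18, the same count as in the strict form, and in 5.3% of those of all protein-coding genes.

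Of the regulators, Srf (chr17:46548329-46556175) had 1 own region, at its promoter. Its percentiles were 75.35 and 64.27 in the beige, 76.9 and 80.07 in the white, and 75.65 and 83.85 in the brown libraries. All white and brown values lay above both beige values, while white and brown overlapped. Its 3 internal start clusters had no peak.

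Myocd (chr11:65176561-65269989), the cofactor of serum response factor, had a weaker promoter and a strong intronic region. The promoter region stood at 40.81 and 39.83 in the beige, 36.36 and 40.61 in the white, and 40.57 and 64.31 in the brown libraries. Brown replicate 2 alone was high. An intronic region 54506 bp downstream of the start (chr11:65215158-65215695) stood well above the promoter in every library, at 86.26 and 88.73, 89.04 and 86.49, and 71.03 and 91.09. Regions 60330 and 72522 bp downstream were also listed in all 6 libraries, the first with percentiles from 9.82 in brown replicate 2 to 78.85 in white replicate 1. All 3 of these shared intronic regions held a TEAD match, as did 5 of the 11 own regions of Myocd. The summit of the strongest of them is shown with that match in capitals, which lies on the other strand and so reads CATTCC, since it ranked above the promoter in every library.
Myocd intron (chr11:65215423-65215543, minus strand): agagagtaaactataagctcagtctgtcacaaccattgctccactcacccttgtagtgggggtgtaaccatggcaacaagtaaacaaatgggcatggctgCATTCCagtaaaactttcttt
Upstream of the gene, a region 1218 bp before the start (chr11:65271115-65271321) was listed in the white libraries only, at the 46.48th and 41.34th percentile with a −log10 q of 8.19 and 7.13. It lay just outside the promoter window of 1 kb.

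Of the actin and myosin genes, Acta2 (chr19:34241090-34255590), which encodes smooth muscle alpha-actin, had a region over its first exon in every library. Its percentiles were 63.94 and 61.61 in the beige, 88.29 and 75.31 in the white, and 73.22 and 70.77 in the brown libraries. The white values were the highest and the beige the lowest, and the groups did not overlap. Among all regions tested, 22.1% had both beige values below both white ones. The share with all 3 groups apart was not computed. The difference of beige minus white was −0.61 on the normal score scale described below (SE 0.25), with an adjusted p of 0.25 (limma). The region with the CArG box in the first intron, by contrast, was listed in beige replicate 1 at 39.66 and white replicate 2 at 3.86 only. A second intronic region of Acta2, in intron 7 (chr19:34243973-34244393), stood at 87.95 and 83.14 in the beige, 71.9 and 86.58 in the white, and 59.99 and 36.49 in the brown libraries. Both brown values lay below the other 4. Over all regions tested, brown lay below beige in 27.3% and below white in 23.9%. The summit of this region is shown because it carried the largest difference between brown and beige among the genes' own regions.
Acta2 intron 7 (chr19:34244173-34244293, minus strand): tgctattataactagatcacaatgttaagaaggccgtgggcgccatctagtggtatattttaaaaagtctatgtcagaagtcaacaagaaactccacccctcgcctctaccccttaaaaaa

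The smooth muscle myosin heavy chain gene Myh11 (chr16:14194535-14291372) had the highest mean promoter percentile of the group, 88.7 (SD 6.4) beside 86.2 (SD 5.3) at the internal start of Tpm1, a gap smaller than either SD. It had 12 own regions, more than any other member, but is also the longest of them at 96.8 kb. Of the 12, 5 were listed in 1 library only. The promoter region stood at 94.3 and 96.01 in the beige, 87.51 and 88.78 in the white, and 77.81 and 87.82 in the brown libraries. Both beige values were the highest. In intron 3, 32288 bp downstream of the start, a region (chr16:14258615-14259307) stood at 91.0 and 93.61, 98.81 and 96.91, and 84.8 and 86.46, with the white values highest, the brown lowest and no overlap between the groups. Both brown values lay below both white ones in 23.9% of all regions tested. Another region, 53893 bp downstream (chr16:14237080-14237668), kept a percentile of 88.46 or more in all 6 libraries. One intronic region near the 3′ end, 95751 bp downstream of the start (chr16:14195495-14195720), was listed in the beige libraries only, at 66.61 and 61.62 with a −log10 q of 14.25 and 13.67. It lay in the last intron of the coding transcripts. The summits of the intron 3 region and of the region listed in beige only are shown, since the first carried the lowest p among the own regions and the second was the only own region listed in the libraries of 1 condition alone.
Myh11 intron 3 (chr16:14259024-14259144, minus strand): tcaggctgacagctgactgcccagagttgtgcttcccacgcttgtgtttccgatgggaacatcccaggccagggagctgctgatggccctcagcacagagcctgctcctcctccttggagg
Myh11 near the 3′ end (chr16:14195561-14195681, minus strand): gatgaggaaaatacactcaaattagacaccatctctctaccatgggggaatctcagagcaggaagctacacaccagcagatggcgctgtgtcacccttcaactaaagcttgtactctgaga

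Myl9 (chr2:156775420-156781658) encodes the regulatory light chain of smooth muscle myosin. Its promoter region, with the CArG box shown above, stood at 68.22 and 62.2 in the beige, 57.99 and 43.91 in the white, and 66.08 and 67.22 in the brown libraries. Both white values were the lowest, and beige and brown overlapped. The difference of beige minus white was 0.37 (95% interval −0.24 to 0.98, adjusted p of 0.528 by limma). One further region of Myl9 was listed in white replicate 1 only.

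Of the actin-binding regulators, Tagln (chr9:45929619-45936058), which encodes transgelin or SM22 alpha, had a peak at its start that was weak in 4 of the libraries. Its percentiles were 29.22 and 7.24 in the beige, 19.15 and 8.28 in the white, and 42.44 and 47.84 in the brown libraries. Both brown values lay above the other 4. Over all regions tested, brown lay above beige in 24.0% and above white in 22.7%. Here brown minus white was 1.01 (95% interval 0.02 to 1.99) with an adjusted p of 0.287 by limma. A stronger region lay 1074 bp upstream of the start, between the 51.42nd and 82.49th percentile. Its summit fell within 1 kb of a start in 3 libraries, where it was the promoter peak with the higher rank.

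Cnn1 (chr9:22099216-22109630), which encodes calponin, had a weak promoter. No peak was listed in beige replicate 1, and beige replicate 2 stood at 26.69. The white libraries stood at 26.92 and 21.36 and the brown at 15.0 and 5.85. The −log10 q of these 5 peaks ran from 3.38 to 8.56, while the lists began at 1.3. With 1 library missing, the region could not be fitted. The 2 regions inside Cnn1 were each listed in 1 library. A region 3030 bp upstream of the start, outside protein-coding genes, ranked high in all 6 libraries. Its percentiles were 97.99 and 98.08 in the beige, 94.34 and 94.13 in the white, and 96.51 and 93.44 in the brown libraries.

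Lmod1 (chr1:135324807-135368065) encodes leiomodin, which nucleates actin filaments. The region within 1 kb of its start that was present throughout lay 947 bp upstream, at 87.99 and 80.8 in the beige, 67.8 and 85.11 in the white, and 86.16 and 77.26 in the brown libraries. A peak at 98 bp upstream was listed in 1 library of each condition, at 34.64 for beige, 60.98 for white and 20.63 for brown. In the first intron, a region 27386 bp downstream (chr1:135351890-135352542) kept a percentile of 79.28 to 88.84. Another, 17255 bp downstream (chr1:135341949-135342264), was listed in both beige and both brown libraries and in no white one, at 18.72 and 41.13 and at 29.39 and 25.73. Its −log10 q ran from 3.28 to 6.41.

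The tropomyosin genes Tpm1 and Tpm2, whose products lie along actin filaments, have several promoters. In Tpm1 (chr9:67022590-67049406) the internal start cluster, 5417 bp downstream, which serves the short isoforms, stood above the upstream one in every library. Its percentiles were 90.09 and 87.87 in the beige, 84.45 and 77.09 in the white, and 85.56 and 92.09 in the brown libraries. Those of the upstream cluster were 72.0 and 65.45, 71.15 and 60.2, and 73.67 and 77.37. At both starts white replicate 2 was lowest. An intronic region 12574 bp downstream of the upstream start (chr9:67036695-67037000) was listed in both beige and both brown libraries and in neither white one. Its percentiles were 58.0 and 47.3 in the beige and 18.1 and 47.81 in the brown libraries, with a −log10 q of 15.17, 14.06, 4.91 and 8.98. Its summit held a TEAD match, in capitals below, and is shown with that of the like region in Lmod1, because these were the own regions listed only in the cultures in the beige-type medium. With peaks at a q under 0.00001, neither kept this pattern.
Tpm1 intron (chr9:67036772-67036892, minus strand): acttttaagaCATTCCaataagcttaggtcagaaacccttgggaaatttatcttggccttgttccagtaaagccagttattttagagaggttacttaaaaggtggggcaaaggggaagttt
Lmod1 intron 1 (chr1:135342002-135342122, plus strand): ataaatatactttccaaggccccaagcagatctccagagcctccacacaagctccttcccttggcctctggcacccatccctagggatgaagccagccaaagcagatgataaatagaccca

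In Tpm2 (chr4:43514711-43523765) the region at the start itself, 190 bp downstream of the most upstream start, was listed in 5 libraries at 23.03 to 37.94 and was missing from white replicate 2. The region counted at the upstream start cluster in all 6 libraries lay 1322 bp downstream, at 64.24 and 51.13 in the beige, 81.69 and 54.32 in the white, and 69.28 and 76.88 in the brown libraries. The region of the second start cluster, at 3613 bp, stood at 55.71 and 35.19, 42.37 and 63.48, and 38.5 and 31.01. Beige and white overlapped at both regions. Both brown values lay above both beige values at the first and below both white values at the second, and the other pairs overlapped.

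**Figure D2:**
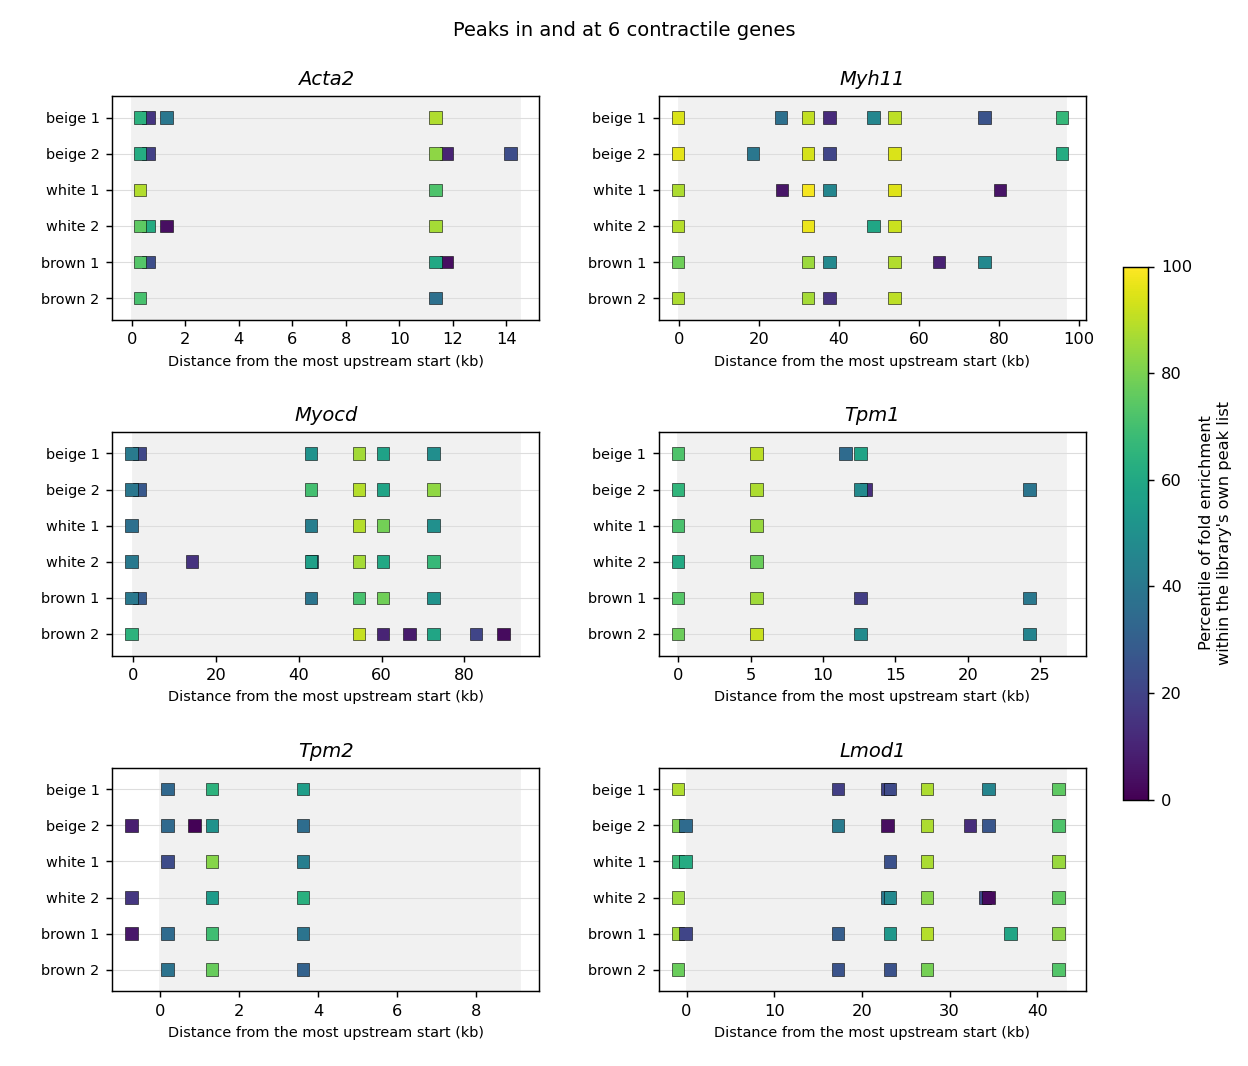
Peaks inside and within 1 kb of the starts of 6 of the genes, by distance of the summit from the most upstream start (x axis, kb) in each library (rows). Colour gives the percentile of fold enrichment within the library's own list and grey shading the gene. Columns filled in all 6 rows were the regions shared by all libraries, such as the 3 of Myh11, and the squares of Myh11 near 95.8 kb appear in both beige rows only.

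Most of the 195 regions near the genes were either shared by all libraries or split between replicates. Of the 195, 51 lay at promoters of other genes and 40 inside other protein-coding genes. A peak was listed in all 6 libraries in 90 regions (46.2%), against 30.2% of all regions. Another 97 (49.7%, against 63.1%) were listed in some libraries in a way that split the replicates of a condition. The remaining 8 regions followed condition, with a peak in both libraries of some conditions and in none of the others. They were 2 in beige only (1.03%, against 1.94%), 3 in white only (1.54%, against 1.23%), 2 in beige and brown (1.03%, against 1.25%) and 1 in white and brown (0.513%, against 0.243%). None were in brown only, against 0.877%, or in beige and white only, against 1.16%. Of the 58 own regions, 19 were listed in all 6 libraries, a share closer to 30.2% than to 46.2%. Another 3 followed condition, namely the Myh11, Tpm1 and Lmod1 regions described above. The remaining 36 split the replicates of a condition, against 63.1% of all regions, and 20 of them were listed in 1 library only. The other 5 regions that followed condition lay outside the genes. That 29020 bp downstream of the upstream start of Tpm1 was in beige only, that upstream of Myocd in white only, and the rest inside the neighbouring genes Stambpl1, Dlgap4 and Tln1, of which the last 2 stood at or below the 2.95th percentile. The windows around the genes held a median of 15.8 regions per 100 kb, against 11.5 around all protein-coding genes, from 9.7 at Myh11 to 22.6 at Cnn1.

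**Figure D3:**
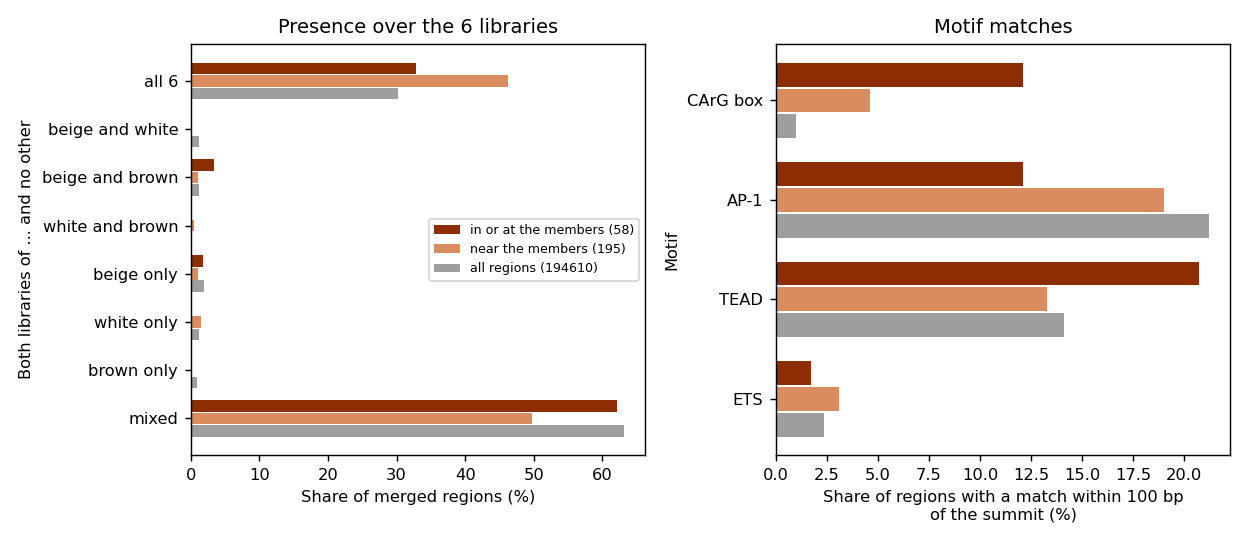
Left, share of merged regions (x axis, %) by the conditions in which both libraries, and no library of another condition, had a peak. Right, share of regions (x axis, %) with a motif match within 100 bp of the summit. Bars give the members' own regions, the regions near them and all regions. The bars for all 6 libraries stand at 46.2% near the members and 30.2% over all regions. The bar for own regions (19 of 58) is closer to the latter. Those for the CArG box stand at 12.1% of own and 0.973% of all regions.

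The rank of a region was compared between conditions where all 6 libraries had a peak. Percentiles were turned into normal scores, on which 1 unit is 1 standard deviation of a normal distribution, and fitted with limma over 58720 such regions, 90 of them near the members. None of the 90 passed an adjusted p of 0.05 in beige minus white, brown minus beige or brown minus white, with 7 (0.0119%), 0 (0.0%) and 6 (0.0102%) of all regions called. The lowest adjusted p was 0.0953, 0.133 and 0.101. At an unadjusted p under 0.05 the fit had 14 of the 90 regions in beige minus white (11 higher and 3 lower, with 17.0% of all regions in either direction), 9 in brown minus beige (all lower, 14.0%) and 14 in brown minus white (6 higher and 8 lower, 16.8%). By direction, the shares over all regions were 10.3% higher and 6.72% lower in beige minus white, 3.88% and 10.1% in brown minus beige, and 7.84% and 8.94% in brown minus white. Both libraries of one condition lay above both of the other in 23 and below them in 15 of the 90 regions in beige minus white (25.8% and 22.1% of all regions). In brown minus beige this held for 20 and 22 regions (24.0% and 27.3%) and in brown minus white for 19 and 17 (22.7% and 23.9%). The shares near the members were thus close to those over all regions. The median difference over the 90 regions was 0.06, −0.02 and 0.03, and over all regions 0.03, −0.02 and −0.01. The median SE of a difference was 0.28 in each comparison.

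Among the 19 own regions tested, the differences with the lowest p, singled out after their values were seen, lay in Myh11 and Acta2. The intron 3 region of Myh11 differed by −1.0 between brown and white (SE 0.21, 95% interval −1.47 to −0.53), with an adjusted p of 0.101. The intron 7 region of Acta2 differed by −1.11 between brown and beige (SE 0.29, 95% interval −1.74 to −0.49), with an adjusted p of 0.146. The promoter of Myh11 differed by −0.70 between brown and beige (SE 0.21), with an adjusted p of 0.191. When peaks were ranked by −log10 q in place of fold enrichment, the Myh11 intron 3 region passed the threshold in brown minus white, at −0.96 (SE 0.15) and an adjusted p of 0.0231. At the other end, the promoter of Tpm1 at the upstream start differed by 0.08 between beige and white, with an interval of −0.46 to 0.63, and that of Srf by 0.05 between brown and white, with an interval of −0.47 to 0.57.

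**Figure D4:**
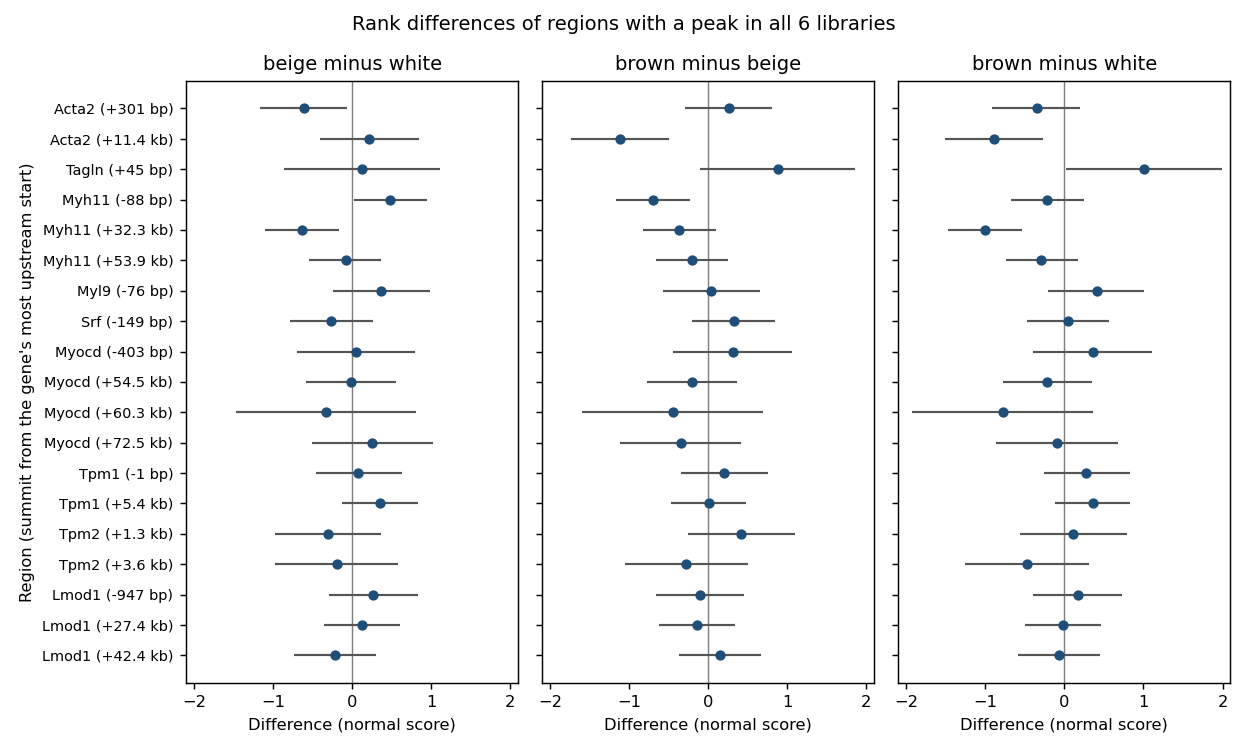
Differences in normal score of the within-library percentile (x axis) for the 19 own regions with a peak in all 6 libraries (y axis, with the distance of the summit from the most upstream start), in 3 comparisons. Points are limma estimates and lines 95% intervals before adjustment, from 2 libraries per condition. The intervals of the Myh11 region in intron 3 in brown minus white (−1.47 to −0.53) and the Acta2 region in intron 7 in brown minus beige (−1.74 to −0.49) lie below 0.

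Another 30 genes of smooth muscle contraction, adhesion and serum response factor signalling were looked at in the same way. Of these, 27 had a promoter peak in all 6 libraries and 3 had none in any, namely Actg2, Cnn2 and Kcnmb1, which encode gamma-actin of enteric smooth muscle, a calponin and a subunit of a potassium channel. The median promoter percentile of the 27 ran from 79.8 to 86.1 over the libraries, against 64.3 to 76.9 for the members. In limma, 0 of their 27 strongest promoter regions passed the threshold in any of the 3 comparisons, and the lowest adjusted p was 0.117, 0.244 and 0.104. At an unadjusted p under 0.05 there were 2, 2 and 3 of the 27, against 17.0%, 14.0% and 16.8% of all regions. The protein-coding genes whose promoter percentiles were most like those of Acta2 over the 6 libraries, of 14072 compared, were Apbb1ip, Nell2 and Tlcd2, with a mean absolute difference of 1.47, 2.3 and 2.69 percentile points.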

How the data were processed

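ATAC-seq peak lists of 6 libraries, 2 each of beige, white and brown adipocytes, were used; groups and replicate numbers came from the sample labels. The authors trimmed reads with Trimmomatic, aligned them to mm10 with BWA and called peaks per library with MACS2 at a q value under 0.05. The deposited fold enrichment is the ratio of summit pileup to local background, and the deposited −log10 q gives the authors' significance of each summit. The insulin amounts in the study's methods differ from those in the labels.

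Of several summits sharing an interval the most significant was kept. Peaks overlapping by at least 1 bp were merged into regions. A promoter ran from 1 kb before to 1 kb after any GENCODE M21 start; starts up to 200 bp apart formed a cluster. The CArG, AP-1, TEAD and ETS motifs were searched within 100 bp of the summit in the GRCm38 sequence. Normal scores of within-library percentiles were fitted over regions with a peak in all 6 libraries with limma 3.58.1 (R 4.3.3; trend, all conditions in 1 fit, no replicate term), with Benjamini-Hochberg adjustment over all regions and a threshold of 0.05. The fit was run on simulated shifts of known size, and its mean estimates were checked against them. This does not show that differences of the size seen here would be called. Exact permutation tests were not used, since 2 against 2 libraries cannot give a two-sided p under 0.333. Python 3.11.15, numpy 2.4.6, pandas 2.3.3 and pysam 0.24.0 were used.

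Fully named were all 10 members, each with its start clusters and its own regions that followed condition or were called, the listed smooth muscle genes without a promoter peak in all 6 libraries, and the 3 genes most like Acta2. The members and the gene lists were chosen with earlier results of these data known. Alternatives covered the q threshold, list length, merging, flank and promoter width, the rank measure, the replicate term and each library left out.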

Additional observations from a re-analysis of the deposited data

How the results depend on the processing

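The 9 genes with a promoter peak in all 6 libraries were 7 with promoters of 250 bp and 10 without beige replicate 1, the library that lacked the Cnn1 peak. Start clusters with a peak throughout numbered 8 to 16 over the alternatives. With 10 kb to each side of a gene in place of 50 kb, which leaves fewer regions, 29 regions had a peak in all 6 libraries and 5 followed condition. Without 1 library, when a condition rests on 1 list, 21 to 30 regions followed condition in place of 8. With peaks at a q under 0.00001, 10 did, and the patterns shifted, with beige only at 7 in place of 2, beige and brown at 0 in place of 2, and white and brown at 0 in place of 1. The share with a CArG box was 12.1% over own regions in place of 4.62%, and the looser form of the box, added after the data were seen, raised the count from 9 to 22.

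Ranking by −log10 q called 2 member regions in beige minus white, at the promoters of Marf1 and Ccdc107 near Myh11 and Tpm2, and 1 in brown minus white, in Myh11 intron 3. Leaving out a library called 0 to 2 in brown minus white, the 2 being regions near Myh11 and Cnn1 outside those genes, without white replicate 1, and 0 in the other comparisons. The cause was not tested.

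The number called of all regions tested depended more on the settings. The regions tested were the same 58720 except with 4 libraries and with peaks at a q under 0.00001, where the set of regions was another. In beige minus white it was 7, and 562 with −log10 q, 89 with percentiles among shared regions, 0 untransformed, 1 with peaks at a q under 0.00001, 1 with 4 libraries and 0 to 581 without 1 library. In brown minus beige it was 0, and 500 with 4 libraries and 0 to 67 without 1 library. In brown minus white it was 6, and 656, 151, 0, 0 and 1 under the same alternatives as in beige minus white, and 1 to 1711 without 1 library, the highest without white replicate 1. The cause was not tested. With a replicate block, 264, 217 and 270 of all regions were called, and 0 near the members. Whether same-numbered replicates shared more than a number is not given. Their deviations correlated at 0.0802, −0.0137 and 0.0344 between beige and white, beige and brown, and white and brown. With 1 replicate difference per condition, this cannot show whether they shared a preparation.

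With 2 libraries per condition and no read counts, the absence of a listed peak does not show closed chromatin. Rank differences as large as −1.6, in a region near Lmod1 (brown minus white, adjusted p of 0.123 by limma), did not pass the threshold.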
